A study of Mus musculus with 2 samples.

Results

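Chemokine receptors are the surface proteins with which blood cells read gradients of chemokines, and the 7 described here are Ccr1, Ccr2, Ccr3, Ccrl2, Cx3cr1, Cxcr4 and Ackr3. They were chosen by name from the genes of this family on the array, with earlier results of these data known. All probe sets annotated to a single gene symbol equal to one of these names were used. This gave 12 probe sets for the 7 genes, of 34945 probe sets for 18193 genes in all. The samples were osteoclasts, the bone-resorbing cells, grown for 6 days with M-CSF plus RANKL, and macrophages grown for 6 days with M-CSF alone. M-CSF is the growth factor both cell types need, and RANKL is the cytokine that drives osteoclast formation. Both came from bone marrow of C57/Black6 mice aged 8 weeks, precultured for 3 days with M-CSF to give adherent progenitors that can form either cell, and each cell type was profiled on 1 array. The labels do not give the number of animals behind an array, and osteoclast cultures of this kind can still hold mononuclear cells.

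Most chemokine receptors couple to inhibitory G proteins, through which ligand binding sets off phosphoinositide 3-kinase and Rac signalling and cell migration. Receptor kinases and arrestins then switch the receptor off, and RGS proteins shorten the G protein signal. Ccr1, Ccr2 and Ccr3 bind CC chemokines, Cx3cr1 binds the membrane-anchored chemokine fractalkine, and Cxcr4 binds Cxcl12, which retains haematopoietic cells in the marrow. Ackr3 and Ccrl2 are atypical receptors that bind ligands without the usual G protein signal. In bone, such receptors are known for guiding marrow monocytes and osteoclast precursors between blood and bone surfaces.

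Values are the deposited linear intensities, written here as signals. Each difference sets a probe set against itself on the other array. Probe sets differ in brightness for the same amount of RNA, so signals of different genes are not compared as levels. A signal counted as measured above a background level, the 95th percentile of 77 probe sets of olfactory and vomeronasal receptors, which was 25.9 in the osteoclast array and 28.4 in the macrophage array. Over 19395 probe sets above background on both arrays, the osteoclast signal was lower by a median log2 difference of -0.45, called the shift. Differences are log2 of osteoclast over macrophage relative to this shift, and adding -0.45 gives the deposited difference, except where a bound limits it. Each group is a lone array without replicates, so no test was possible. Sizes are set only against how far probe sets of a gene differ from each other, an SD of 0.43 (log2) from 4607 genes with 12124 such probe sets. That SD leaves out variation between cultures and animals, and precision is limited throughout by having 2 arrays.

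The labelled cell types were checked against their markers. All 10 osteoclast markers were at least 2-fold higher in the osteoclast array, among them Acp5 (8167 against 104), Ctsk (9202 against 134), Mmp9 (8767 against 30.4) and Calcr (241 against 18.3, the second being under background). The macrophage receptor genes Csf1r (6005 in osteoclasts, 9899 in macrophages) and Adgre1 (1107 in osteoclasts, 5919 in macrophages) were measured in both. Of 10 macrophage markers, 4 were at least 2-fold lower in osteoclasts and none was 2-fold higher, while Cd68 (0.049), Csf1r (-0.27), Lyz2 (-0.30) and Cd14 (-0.44) lay closer to the shift. All 10 were above background in macrophages, and Cd163 (1.71 in osteoclasts, 50.1 in macrophages) was not in osteoclasts. Xist, the RNA of the inactive X chromosome, gave 22.1 in the osteoclast array and 1872 in the macrophage array, while the Y-linked genes Eif2s3y, Uty and Kdm5d gave 321, 72.7 and 63.5 in osteoclasts and 0.571, 14.7 and 6.14 in macrophages. Sex-chromosome transcripts thus set the same 2 arrays apart, and effects of RANKL and differences between the animals cannot be told apart in any value below. Control probe sets at the 3' end gave, relative to those at the 5' end, a ratio of 0.862 in osteoclasts and 0.748 in macrophages for Gapdh, and 1.21 and 1.23 for beta-actin in the same order.

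Ccr1 was the 1 receptor of the 7 that was higher in osteoclasts. Ccr2 and Cx3cr1, both known from monocytes, were lower, Ccrl2 was under background in osteoclasts and above it in macrophages, Ccr3 and Cxcr4 lay near the shift, and Ackr3 was under background in both arrays. Of the 6 receptors measured in at least 1 array, 1 passed 2-fold upward and 2 passed it downward, with the shift taken off. Of all 11490 measured genes, 6.54% passed 2-fold upward and 6.34% downward. Because the 7 were chosen with earlier results of these data known, these shares are no test of the family. With deposited values taken as they stand, 1 receptor was 2-fold higher and 3 were 2-fold lower, Ccrl2 being the third, beside 2.62% and 17.0% of all genes. Over all measured genes, the 5th percentile of the difference was -1.12 and the 95th was 1.13.

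**Figure D1:**
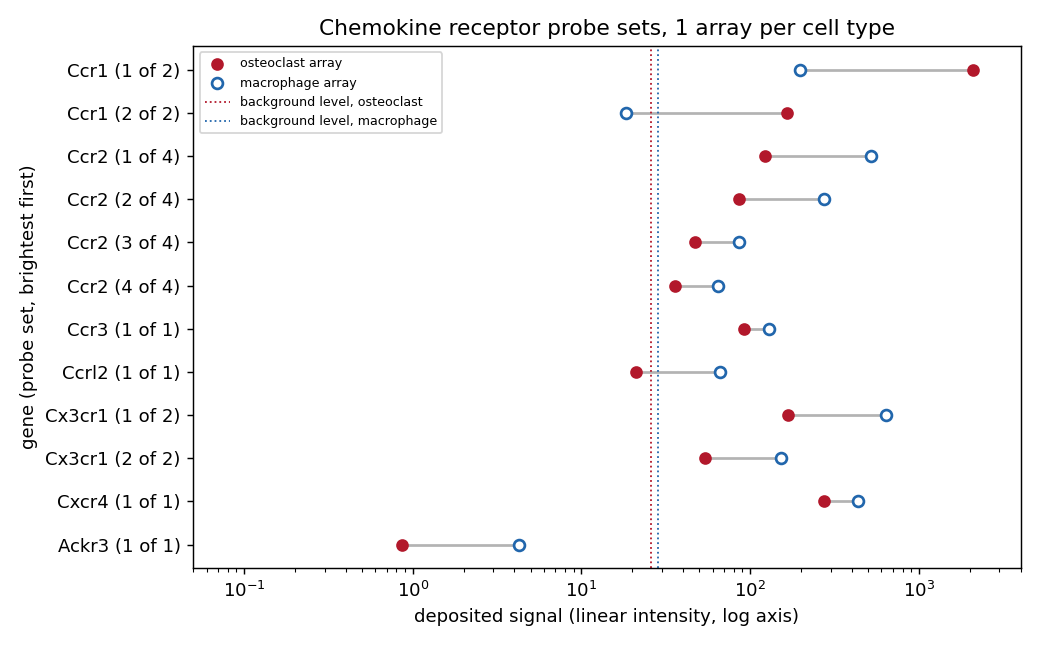
Signals of the 12 probe sets (x axis, linear intensity on a log axis) for the 7 genes, with filled points for the osteoclast array, open points for the macrophage array and dotted lines at the background levels of 25.9 and 28.4. Both Ccr1 probe sets lie to the right in osteoclasts, and every other probe set lies to the left.

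Ccr1, the receptor for Ccl3, Ccl5, Ccl6, Ccl7 and Ccl9 in the mouse, gave a signal of 2095 in osteoclasts and 196 in macrophages. The difference was 3.86, or 14.6-fold (10.7-fold as deposited), which is 8.96 times the SD between probe sets of a gene. A further Ccr1 probe set gave 165 in osteoclasts and 18.3 in macrophages, the macrophage signal being under background, so Ccr1 was at least 7.93-fold higher by that probe set. Both probe sets therefore placed Ccr1 above 4-fold in the same direction, as were 1.30% of all measured genes. Ccr1 ranked 31 from the top of the 11490 genes, and 0.261% of them had a higher difference.

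Granulocytes also carry Ccr1, and their markers were higher in the same array. Of 10 measured granulocyte markers, 8 passed 2-fold upward in osteoclasts (3 as deposited), beside 6.54% of all measured genes (2.62% as deposited). Csf3r was at least 2-fold lower (52.4 in osteoclasts, 172 in macrophages, -1.27), and Mmp8 lay slightly below the shift (276 and 433, -0.20). The summed signal of the markers, over the 11 with a probe set, was 6390 in osteoclasts and 3835 in macrophages. S100a9 gave 2161 and 904 and Mpo gave 89.3 and 36.2 in that order. The neutrophil receptor Cxcr2 was under background in both arrays (4.66 in osteoclasts, 2.74 in macrophages). The part of these cells in the Ccr1 difference was not tested.

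Of the Ccr1 ligands, Ccl9 was bright in both arrays (6648 in osteoclasts, 6447 in macrophages) and differed by 0.49, with a further probe set at 0.80. Ccl3 was lower in osteoclasts (96.9 against 440, a difference of -1.73), as was Ccl6 (779 against 2578, -1.28), with a further Ccl6 probe set at -1.55. Ccl5, shared with Ccr3, gave 29.3 in osteoclasts and 47.8 in macrophages (-0.26). Ccl7, shared with Ccr2, is given with that receptor.

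Ccr2, which brings monocytes out of the marrow in response to Ccl2, Ccl7 and Ccl12, was lower in osteoclasts by all 4 of its probe sets, but by unequal amounts. The brightest gave 122 in osteoclasts and 523 in macrophages, a difference of -1.65 or 3.13-fold, and the next gave 85.4 and 274 in the same order (-1.24). The dimmer pair gave 47.4 against 85.9 (-0.41) and 36.0 against 64.3 (-0.39), each within the SD of 0.43. Ccr2 was thus past 2-fold by 2 of 4 probe sets, and the mean over the 4 gave -0.92, which ends the call. By its brightest probe set, 1.74% of the 11490 genes had a lower difference. Hybridisation of related transcripts to these probes was not tested.

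Monocyte markers were mostly lower beside Ccr2. Of 5 measured, 3 were at least 2-fold lower in osteoclasts, beside 6.34% of all measured genes. These were F13a1 (207 against 2627), Treml4 (49.5 against 279) and Nr4a1 (24.4, under background, against 145). Chil3 (621 against 1448, -0.77) stayed within 2-fold, and Plac8 (405 against 537, 0.041) lay just above the shift. The 5 markers summed to 1306 in osteoclasts and 5037 in macrophages, and their part in the Ccr2 and Cx3cr1 values was not tested. In bulk RNA, fewer cells of a type and less RNA per cell cannot be told apart. The Ccr2 ligand genes lay within 2-fold, with Ccl2 at 423 in osteoclasts and 809 in macrophages (-0.49), Ccl7 at 76.9 and 154 (-0.55) and Ccl12 at 34.5 and 59.5 (-0.34).

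Cx3cr1, which marks patrolling monocytes and osteoclast precursors, was lower in osteoclasts by both of its probe sets. The brighter gave 167 in osteoclasts and 636 in macrophages (-1.48, 2.78-fold, 3.42 times the SD), and the dimmer gave 53.9 and 152 (-1.05, 2.07-fold). These 2 values lay within the SD of each other. The Cx3cr1 difference was lower than that of 97.5% of the measured genes. Its ligand fractalkine, encoded by Cx3cl1, was dim, at 30.7 in osteoclasts and 70.0 in macrophages (-0.74), with another probe set at 0.41, so that its direction differed between probe sets.

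Ccr3, the eotaxin receptor known from eosinophils, gave 91.6 in osteoclasts and 129 in macrophages. Relative to the shift this is -0.042, far inside the SD between probe sets, and the deposited values differed by -0.49. Of the eosinophil, basophil and mast cell markers, 8 of 10 were under background in both arrays, among them Siglecf (1.63 in osteoclasts, 11.9 in macrophages), Epx (1.04 and 10.4) and Il5ra (2.46 and 3.26). The eotaxin genes Ccl11 (1.33 in osteoclasts, 0.734 in macrophages) and Ccl24 (2.73 and 7.91) were under background as well. Among the same cell markers, Mcpt8 (29.1 in osteoclasts, 72.2 in macrophages, -0.86) and Gata2 (47.4 and 64.0, 0.017) were above background in both arrays. Which cells gave the Ccr3 signal was not tested.

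Cxcr4, with 275 in osteoclasts and 434 in macrophages, differed by -0.21 relative to the shift and by -0.66 as deposited, from its 1 probe set. Ackr3, the other Cxcl12 receptor, which takes the ligand up, gave 0.869 in osteoclasts and 4.28 in macrophages, under background in both, so no fold is given. Its probe set carries the suffix for probes that can match more than 1 gene. Cxcl12 itself gave 130 in osteoclasts and 307 in macrophages (-0.79), with a further probe set at -1.49. Stromal cells are its known source. Of the 10 other stromal and endothelial markers with a probe set, 7 were above background in at least 1 array, 4 of them above the shift and 3 below it, with a median of 0.20. The 10 summed to 6036 in osteoclasts and 11673 in macrophages, a sum carried by Col1a2 (2895 and 5744), Sparc (1535 and 3705) and Col1a1 (1381 and 2078), whose probe sets fell on both sides of the shift. The 1 marker past 2-fold was Vwf, an endothelial and platelet gene, higher in osteoclasts (95.5, against 13.9 under background in macrophages). Lum, Pecam1 and Tek were under background in both arrays, and the part of such cells in the Cxcl12 value was not tested. Mif, a further ligand of Cxcr4, gave 4759 in osteoclasts and 4394 in macrophages (0.57), and Cxcl11, a ligand of Ackr3, was under background (19.3 and 12.5).

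Ccrl2, which binds chemerin and holds it at the cell surface for the chemerin receptor Cmklr1, gave 21.0 in osteoclasts, under background, and 65.8 in macrophages. It was at least 1.86-fold lower in osteoclasts once the shift was taken off, and at least 2.54-fold lower as deposited. Ccrl2 passed 2-fold under 5 of the 8 alternative settings, so its side of 2-fold depends on the background level and on the shift. Cmklr1 was lower as well, at 43.9 in osteoclasts and 134 in macrophages (-1.17). The chemerin gene Rarres2 was under background in both (2.36 and 20.4).

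**Figure D2:**
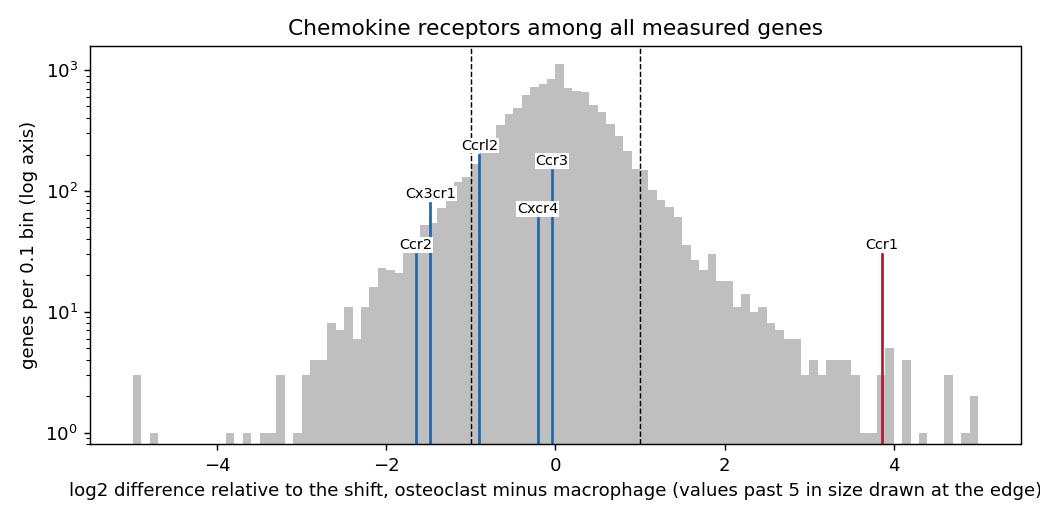
Log2 differences, osteoclast minus macrophage relative to the shift (x axis), of the 11490 measured genes, as a histogram with a log count axis, with the 6 measured receptors marked and dashed lines at 2-fold. Ccr1 at 3.86 stands in the upper tail, Ccr2 at -1.65 and Cx3cr1 at -1.48 are past the lower line, and Ccrl2, drawn at its bound of -0.90, Cxcr4 and Ccr3 lie between the lines.

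Among the 7 genes, Ccr1, Ccr3 and Ccr2 are neighbours in the receptor cluster of mouse chromosome 9, in the order Cxcr6, Xcr1, Ccr1, Ccr1l1, Ccr3 and Ccr2 by the RefSeq gene table of GRCm38.p6. The genes of this stretch had unlike differences. Ccr1 differed by 3.86, Ccr3, with Ccr1l1 between them, by -0.042 and Ccr2, the next gene on, by -1.65. Ccr1l1, a close relative of Ccr1, was under background (13.7 in osteoclasts, 25.8 in macrophages), as was Xcr1 on the other side (5.74 and 20.5). Further out, Cxcr6 was above background in macrophages only (39.9, against 14.9 in osteoclasts), and Fyco1 (-0.12), Lztfl1 (0.092), Sacm1l (-0.28) and Limd1 (-0.14) lay near the shift by their brightest probe sets. Ccrl2 and Cx3cr1 lie elsewhere on chromosome 9. Ltf, a protein-coding neighbour of Ccrl2 and a granulocyte marker, was higher in osteoclasts (290 against 158, 1.33). Ccr8, a neighbour of Cx3cr1, was under background (1.02 in osteoclasts, 2.73 in macrophages). The neighbours on the other side, Lrrfip2 of Ccrl2 and Xirp1 of Cx3cr1, are not described here. Cxcr4 and Ackr3 lie on chromosome 1.

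**Figure D3:**
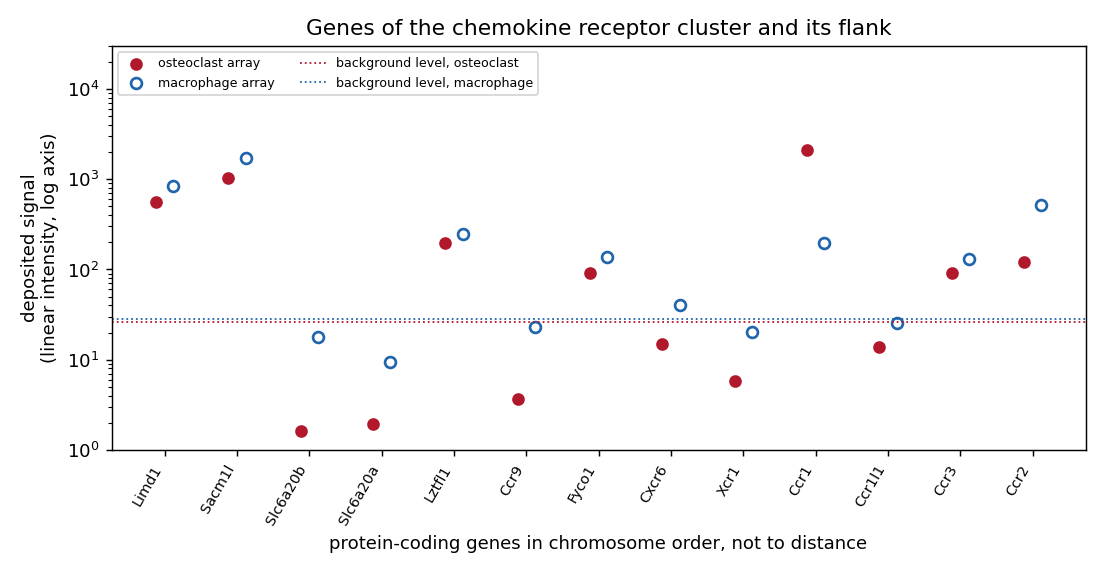
Signals (y axis, linear intensity on a log axis) of 13 protein-coding genes around the receptor cluster, in chromosome order and not to distance, with filled points for osteoclasts, open points for macrophages and dotted lines at the background levels. Ccr1 is the 1 gene drawn whose osteoclast signal is above its macrophage signal.

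Because these neighbours differed, their start regions are shown, as RefSeq has them for GRCm38.p6, from 250 bases before to 50 bases after the start used in that table. They are Ccr1 at chr9:123968643-123968942 on the minus strand, Ccr3 at chr9:124021721-124022020 on the plus strand and Ccr2 at chr9:124101933-124102232 on the plus strand. The start used lies 265 bases inside the annotated gene for Ccr2 and 4146 bases inside it for Ccr3. Capitals mark, on either strand, GGAAA (the core read by NFAT), TGANTCA (AP-1) and GAGGAA (a core of PU.1 sites), factors known for their roles in osteoclasts.
Ccr1: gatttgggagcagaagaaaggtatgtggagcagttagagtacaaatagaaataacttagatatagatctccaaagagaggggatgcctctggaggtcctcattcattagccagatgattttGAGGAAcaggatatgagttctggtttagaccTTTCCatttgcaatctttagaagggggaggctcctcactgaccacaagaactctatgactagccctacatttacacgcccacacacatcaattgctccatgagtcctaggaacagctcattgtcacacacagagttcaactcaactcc
Ccr3: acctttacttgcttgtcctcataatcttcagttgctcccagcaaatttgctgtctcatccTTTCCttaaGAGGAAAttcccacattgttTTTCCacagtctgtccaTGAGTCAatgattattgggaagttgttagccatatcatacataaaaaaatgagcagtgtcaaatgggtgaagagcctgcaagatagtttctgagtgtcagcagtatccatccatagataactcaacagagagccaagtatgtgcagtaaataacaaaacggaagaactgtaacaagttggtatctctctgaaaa
Ccr2: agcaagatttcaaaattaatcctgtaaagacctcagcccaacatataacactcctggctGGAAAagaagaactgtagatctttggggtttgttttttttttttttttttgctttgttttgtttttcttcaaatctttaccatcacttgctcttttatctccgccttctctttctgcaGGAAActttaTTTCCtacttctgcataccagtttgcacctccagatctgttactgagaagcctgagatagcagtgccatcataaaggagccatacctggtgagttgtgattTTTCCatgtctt
GGAAA was found 1 time in the Ccr1 window, 3 times in that of Ccr3 and 4 times in that of Ccr2, and 61.3% of all 32851 windows in the table held it. GAGGAA was found 1 time each in Ccr1 and Ccr3 (28.3% of all windows). TGANTCA was found in the Ccr3 window (7.81% of all windows) and in no other window of the 7 genes. In Ccr3 the GAGGAA match and a GGAAA match overlap in 1 run of capitals. The windows of Cx3cr1, Cxcr4, Ackr3 and Ccrl2 held GGAAA and none of the other motifs. A match is a description of letters, and whether any of these factors acts on these genes was not tested.

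The remaining chemokine receptors were mostly dark on both arrays. They were set apart from the 7 with earlier results of these data known, so no comparison with the 7 is drawn. Of 16 such genes, 15 had a probe set of their own and 10 of these were under background in both, Ccr7, Ccr4 and Cxcr5 among them. None of the 5 measured passed 2-fold relative to the shift, and their median was -0.15, beside 0 for all measured genes. Cxcr6 was above background in macrophages only, so its -0.18 is a bound. As deposited, 1 of the 5 was 2-fold lower, Cxcr3 (-1.27), beside 17.0% of all genes. Of the 5, those with the highest signals were Ackr4, an atypical receptor (124 in osteoclasts, 188 in macrophages, -0.15, other probe set 0.60), and Cxcr3, known from T lymphocytes (51.5 and 124, -0.82). Of 11 lymphocyte markers, 7 were under background in both arrays, Cd3e, Cd3g, Cd4, Cd79a, Ms4a1, Nkg7 and Ncr1. The other 4 lay below the shift: Il7r (176 in osteoclasts, 565 in macrophages), and Cd79b, Cd8a and Pax5, which were above background in macrophages only (64.7, 48.7 and 38.3). The 11 summed to 278 in osteoclasts and 773 in macrophages, most of it Il7r. Of 8 dendritic cell markers, 6 were under background in both. The 2 measured went opposite ways, Batf3 lower (30.2 in osteoclasts, 92.7 in macrophages, -1.17) and Itgax above the shift (112 and 104, 0.56). The 8 summed to 214 in osteoclasts and 311 in macrophages, with the shift not taken off.

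Of 9 measured receptors for other chemoattractants, 5 were at least 2-fold lower in osteoclasts (55.6%, beside 6.34% of all measured genes) and none was 2-fold higher, with a median of -1.11. As deposited, 8 were 2-fold lower, beside 17.0% of all genes. Macrophage markers were lower in the same array, 4 of 10 by at least 2-fold, among them Fcgr1 (141 in osteoclasts, 1425 in macrophages, -2.89), Mertk (143 and 706, -1.85) and Mrc1 (603 and 2504, -1.60), and their part in these values was not tested. The complement receptor genes C5ar1 (459 in osteoclasts, 2298 in macrophages, -1.87) and C3ar1 (1120 and 4634, -1.60) and the leukotriene receptor gene Cysltr1 (82.6 and 268, -1.25) had the lowest differences. A further C5ar1 probe set gave -2.27, and the 3 of C3ar1 ran between -1.60 and -1.30. Gpr183, the oxysterol receptor gene, was the 1 above the shift (592 in osteoclasts, 574 in macrophages, 0.49). The 10 measured ligand genes of the 7 receptors had a median of -0.52, with none 2-fold higher, beside 6.54% of all genes, and 2 at least 2-fold lower, Ccl3 and Ccl6 (20.0%, beside 6.34%), and 4 as deposited.

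Genes that carry the signal inward were all measured. Of 20, 1 was at least 2-fold higher (5%, beside 6.54% of all measured genes) and 3 were 2-fold lower (15.0%, beside 6.34%), with a median of -0.33 (1 and 6 as deposited, median -0.78). Rac2, the haematopoietic Rac GTPase, was higher (2260 in osteoclasts, 981 in macrophages, 1.65, other probe set 2.09). Pik3cg, the catalytic subunit of the kinase that G protein beta-gamma dimers activate, was lower (161 and 554, -1.33), as were the G protein gamma subunit gene Gng2 (197 and 691, -1.36) and Dock2, a Rac exchange factor (380 and 1061, -1.03), although another Dock2 probe set gave -0.079. The inhibitory alpha subunit genes Gnai2 (1857 and 3398, -0.42) and Gnai3 (1037 and 1849, -0.38) stayed within 2-fold by their brightest probe sets, with a further Gnai3 probe set at -1.08.

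Genes that end the signal differed in both directions. Grk3, a receptor kinase, gave 521 in osteoclasts and 99.8 in macrophages (2.83, 7.13-fold), with its 3 probe sets between 2.83 and 4.20. Rgs1, which shortens G protein signals in leukocytes, gave 63.4 in osteoclasts and 663 in macrophages (-2.94, 7.67-fold lower), and Rgs18, known from myeloid cells and platelets, gave 118 and 863 (-2.42, other probe set -1.67). The arrestin gene Arrb2 gave 436 in osteoclasts and 1833 in macrophages (-1.62), while Arrb1 stayed within 2-fold (279 and 453, -0.25). Of 14 measured members, 1 was at least 2-fold higher (7.14%, beside 6.54% of all measured genes) and 4 were lower (28.6%, beside 6.34%), with a median of -0.27 (1 and 6 as deposited, median -0.72).

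**Figure D4:**
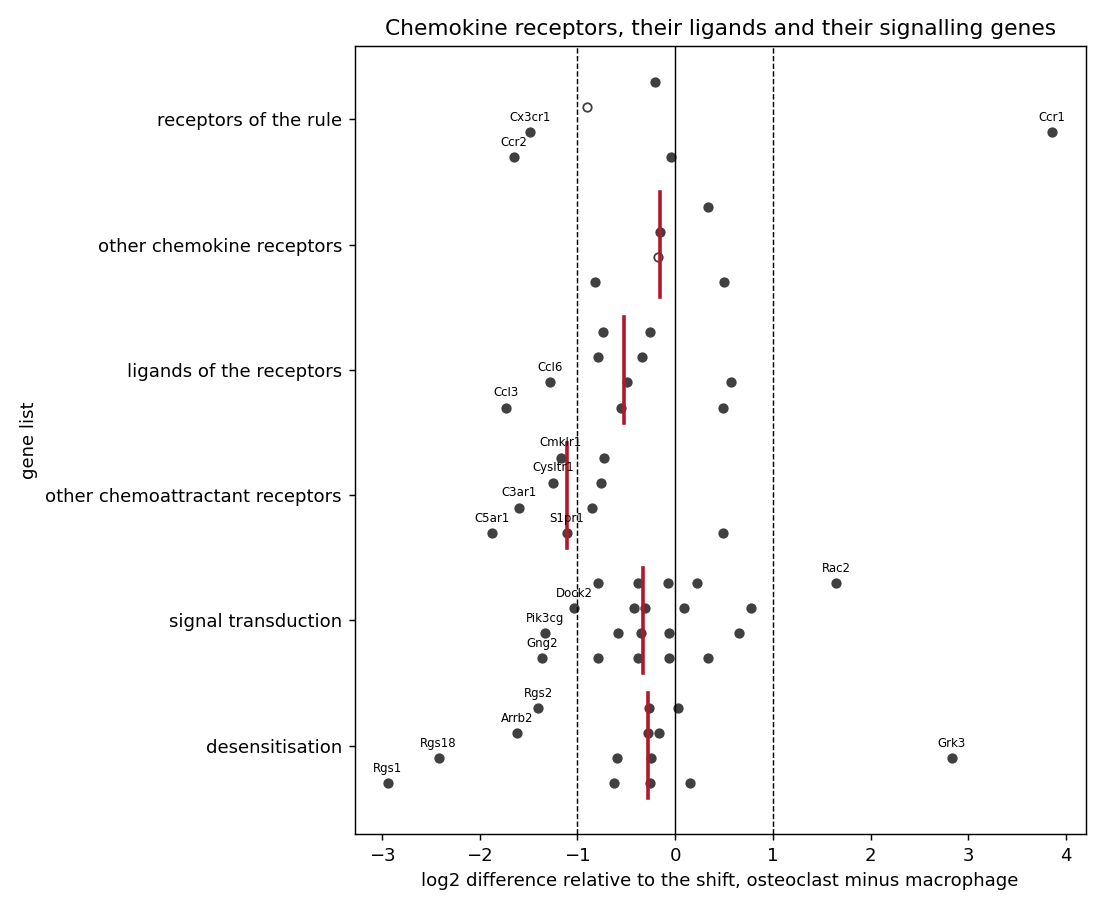
Log2 differences, osteoclast minus macrophage relative to the shift (x axis), of the measured genes in 6 lists (rows), with filled points for genes above background in both arrays, open points for bounds, red bars at list medians other than that of the 7 receptors, and dashed lines at 2-fold. Ccr1, Grk3 and Rac2 are the 3 genes past the upper line.

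The genes with the nearest pair of log2 signals were found for each measured receptor, by the Euclidean distance over the 2 arrays, which matches probe brightness as well as difference, so it compares no RNA levels and is no measure of shared control. For Ccr1 they were Chchd10 (distance 0.35, 2309 in osteoclasts and 245 in macrophages), Fam102a (0.56) and Bhlhe40 (0.71). For Ccr2 they were Tnfrsf13b (0.056), Fhl1 (0.091) and Ebi3 (0.099), and for Cx3cr1 Mylip (0.035), Tcf19 (0.086) and Suco (0.12). Ccr3 lay nearest to Rps4l, Ints1 and Atxn7l1, and Cxcr4 to Mmp8, Usp9x and Clcc1, all within 0.025. For Ccrl2 they were Hrct1, B3gnt3 and Dnmt3l, but all 4 genes were under background in osteoclasts and raised to the same level there, so that they match in the macrophage signal alone.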

How the data were processed

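Total RNA of osteoclasts and of macrophages, for 1 array each, was labelled by the one-cycle Affymetrix protocol from 1 µg, per the labels' protocols. The deposited table holds linear intensity values of 45101 probe sets. Not given in the sources used here: probe summary, background correction and scaling. The 64 control probe sets were left out, and probe sets with a single symbol in the platform annotation, which can be old, were used (34945, of which 34741 have an Entrez identifier in the RefSeq table of GRCm38.p6; 932 carried several symbols and 9160 none).

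Where a gene had several probe sets, the brightest by mean log2 signal stood for it. Signals under background were raised to the background level, which makes the difference a bound. The level used is stricter than the 40th percentile of all probe sets, kept as an alternative. Computation used Python 3.11.15, numpy 2.4.6 and pandas 2.3.3, and the shift and counts were tested on simulated data. The members and gene lists were chosen with earlier results of these data known. Named genes are the 7 receptors, their ligands, cluster neighbours, up to 3 genes in each direction at least 2-fold apart per list or else the 2 brightest, the 3 nearest genes, and label checks; Gpr183, Cmklr1, Gnai2, Gnai3, Arrb1 and the markers named of macrophages and other cell types were chosen after their values were seen. Alternatives changed the shift, the background level and the probe set rule.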

Additional observations from a re-analysis of the deposited data

How the results depend on the processing

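No paired analysis was possible because each group has 1 array. Of 8 alternatives, a shift read from the 1000 probe sets nearest in signal was chosen after seeing the data. Ccr1 stayed the 1 receptor at least 2-fold higher under all 8, between 3.41 and 3.86, and Cx3cr1 stayed past 2-fold lower under all 8, between -1.93 and -1.26. Without the shift taken off, the differences were 3.41 for Ccr1, -2.10 for Ccr2, -0.49 for Ccr3, -1.35 for Ccrl2, -1.93 for Cx3cr1 and -0.66 for Cxcr4. The list medians were then -0.60 for other chemokine receptors, -0.97 for ligands, -1.56 for other chemoattractant receptors, -0.78 for signal transduction and -0.72 for desensitisation, and 301 genes were 2-fold higher and 1950 lower, against 752 and 729. This follows from adding back the shift of -0.45. With no background level, 4 receptors were 2-fold lower, Ccrl2 and Ackr3 joining on signals under background, and 2644 genes were higher and 2719 lower, since dim signals then count. With the mean of all probe sets, Ccr1 was 3.43 and Ccr2 -0.92, leaving 1 receptor 2-fold lower, because the dimmer probe sets differ less. Ccrl2 passed 2-fold under 5 of the 8. Of 88 differences and medians under alternatives, 75 moved by less than the SD between probe sets and none of those past 2-fold changed sign. Signals near background limit Ccrl2 and Ackr3.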
